A study of Mus musculus with 6 samples.

Results

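Atf3, Btg2, Nfkbia, Fosl1 and Fosl2 are genes that cells switch on quickly after a signal or a stress, and all 5 were examined here in PRO-seq data from mouse bone marrow progenitors. They were chosen by name, as every transcript row with one of these symbols. Each gene had 1 row, so they make up 5 of the 3022 rows, and 5 of the 2744 genes, in the authors' deposited table. PRO-seq labels the RNA that engaged RNA polymerase is making, so its reads mark polymerase at work along a gene and not the amount of finished mRNA.

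Per the labels, the cells were cKIT+ bone marrow progenitors of female C57/BL6 mice with the genotype Mllt3 flox/flox Rosa26Cre+. They were transduced with MLLT3 in its wild-type form (WT, 3 libraries) or with the K63E K67E form (DM, 3 libraries). Both groups were then sorted and grown for 8 days in methylcellulose with 200 nM 4-hydroxytamoxifen, which switches on the recombinase and deletes the endogenous Mllt3 gene. Both groups also received mFlt3L at 10 ng/mL, and mSCF, hTPO, mIL-3, hEPO, mIL-6, mGMCSF and mIL-11 at 20 ng/mL each. No group without deletion or without a transgene was analysed here, so DM was compared with WT only. The age of the mice, the number of mice per library and the promoter that drives the transgene are not given in the sources used here. All 6 libraries carry batch number 1. Replicate numbers 1 to 3 are not stated to be separate animals, and p-values therefore measure only the spread between these libraries, which may be technical.

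MLLT3, also called AF9, has a YEATS domain that reads acylated histones, and it belongs to complexes that bring the elongation kinase P-TEFb to genes. On many fast-responding genes, polymerase starts, halts just downstream of the start site and is released into the gene by P-TEFb. The proteins encoded by the 5 genes act at different points of the response. Atf3 encodes a leucine zipper transcription factor of the ATF/CREB family that is induced by many stresses and restrains inflammatory genes. Fosl1 and Fosl2 encode Fra-1 and Fra-2, relatives of Fos that pair with Jun proteins to form AP-1. Nfkbia encodes IkBa, which holds NF-kB in the cytoplasm and is itself an NF-kB target, and so closes a feedback loop. Btg2 encodes an antiproliferative protein that binds the CCR4-NOT deadenylase and is a known target of p53.

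Reads are given for a head window of 330 bp, which begins 30 bp before the 5′ end of the transcript, and for a body window, which is the rest of the transcript with its introns. Where these windows lie decides what the counts of each gene can show. Atf3 (ENSMUSG00000026628.13) lies on chromosome 1 from 191170296 to 191183340 on the minus strand. Btg2 (ENSMUSG00000020423.6) lies on chromosome 1 from 134075170 to 134079120, also on the minus strand. Nfkbia (ENSMUSG00000021025.8) lies on chromosome 12 from 55489410 to 55491810 on the minus strand. Fosl1 (ENSMUSG00000024912.6) lies on chromosome 19 from 5447705 to 5455946 on the plus strand. Fosl2 (ENSMUSG00000029135.10) lies on chromosome 5 from 32135801 to 32157842 on the plus strand. The coordinates are those of the deposited table; the submitters' processing notes name the mouse build mm10, the same assembly as GRCm38.

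The deposited 5′ ends were set against the gene starts in RefSeq's GRCm38.p6 table. They were 7 bp apart for Atf3, 7 bp for Fosl1 and 35 bp for Btg2, so the heads of Atf3 and Fosl1 cover the start of the gene, and that of Btg2 begins 5 bases after it. For Nfkbia the deposited transcript begins 837 bp inside the RefSeq gene. Its head therefore covers bases 807 to 1137 after the RefSeq start, and polymerase near that start was counted in neither window. For Fosl2 the deposited transcript begins 671 bp upstream of the RefSeq gene, so its head spans bases -701 to -371 relative to the RefSeq start, and polymerase near that start was counted as body. Of 2687 genes of the table that matched RefSeq by symbol and chromosome, 26.5% had a 5′ end more than 300 bp from the RefSeq start. Fosl1 overlaps Ccdc85b (chromosome 19, 5453163 to 5457563), and since the use of strand in counting is not stated, some body reads of Fosl1 may belong to that gene. None of the other 4 overlaps another gene of the RefSeq table.

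**Figure D1:**
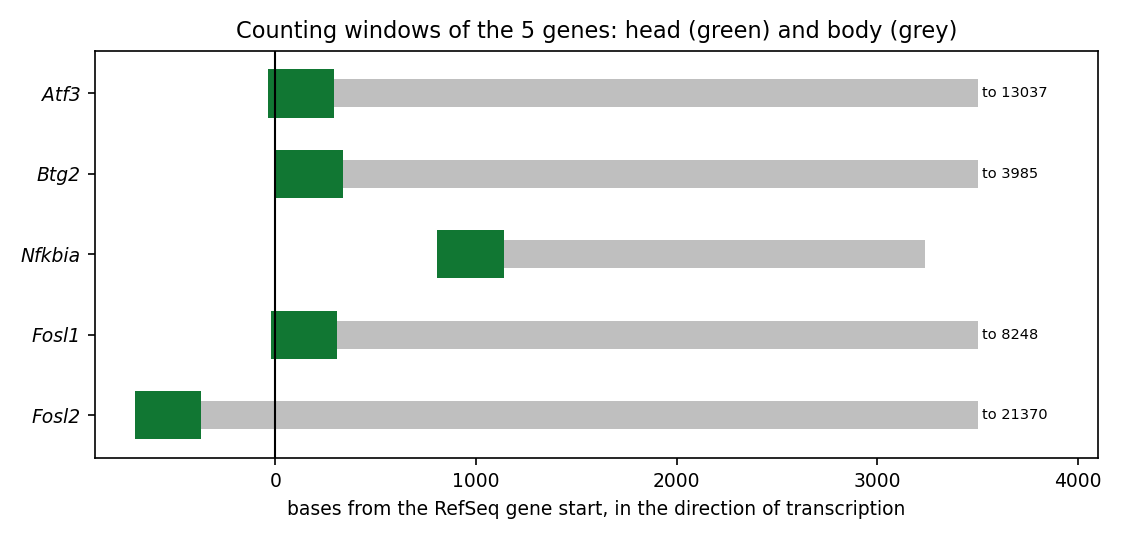
Head windows (green) and body windows (grey) of the 5 genes, in bases from the RefSeq gene start (vertical line), with transcription running to the right. The green bars of Atf3, Btg2 and Fosl1 lie at the start, that of Nfkbia begins 807 bases after it, and that of Fosl2 ends at base -371; bodies beyond the axis carry their end as a number.

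To show what lies before the start of these genes, the 250 bases upstream of the RefSeq start are printed for the 3 genes where they lie outside the deposited transcript or overlap it by no more than 7 bases. They are from RefSeq, build GRCm38.p6, written 5′ to 3′ on the gene's own strand, all 3 on the minus strand: chr1:191183334-191183583 for Atf3, chr1:134079156-134079405 for Btg2 and chr12:55492648-55492897 for Nfkbia. Capitals mark matches, on either strand, to 7 motifs: the CRE core ACGTCA, the AP-1 site TGANTCA, the TATA box TATAAA, the CCAAT box CCAAT, the GC box GGGCGG, and the NF-kB and CArG consensus sites, and matches can overlap.
Atf3 promoter: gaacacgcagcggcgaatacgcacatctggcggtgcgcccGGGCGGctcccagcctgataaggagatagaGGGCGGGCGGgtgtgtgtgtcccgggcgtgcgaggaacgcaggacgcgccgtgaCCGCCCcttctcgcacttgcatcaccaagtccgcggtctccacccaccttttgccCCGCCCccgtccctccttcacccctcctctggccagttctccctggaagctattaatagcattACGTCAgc
Btg2 promoter: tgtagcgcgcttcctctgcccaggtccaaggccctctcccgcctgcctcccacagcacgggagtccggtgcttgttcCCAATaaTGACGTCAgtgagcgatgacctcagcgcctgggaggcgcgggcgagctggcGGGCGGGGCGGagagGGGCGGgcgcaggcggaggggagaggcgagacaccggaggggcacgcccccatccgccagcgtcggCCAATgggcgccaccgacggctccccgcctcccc
Nfkbia promoter: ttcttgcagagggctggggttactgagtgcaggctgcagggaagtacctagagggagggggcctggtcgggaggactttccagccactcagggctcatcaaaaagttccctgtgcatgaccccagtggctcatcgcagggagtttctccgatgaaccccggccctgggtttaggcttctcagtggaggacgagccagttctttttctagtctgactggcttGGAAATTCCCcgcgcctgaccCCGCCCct

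The CRE core, the heart of the site that ATF/CREB factors bind, was found in Atf3, from 8 to 3 bases upstream of the start, and in Btg2, from 166 to 159 bases upstream as the overlapping pair that forms the palindrome. Of 32851 promoters of the same length, 6.5% hold it. The NF-kB consensus was found in Nfkbia, from 29 to 20 bases upstream, and in Fosl2, from 182 to 172 bases upstream, against 3.9% of all promoters. All 250 bases of the Fosl2 window lie inside its deposited transcript, so its matches fall within the stretch counted as body. GC boxes were found in all 4 genes with an entry (Atf3, Btg2, Nfkbia and Fosl2), against 32.7% of promoters, and a CCAAT box in Btg2 alone of these 4, against 33.8%. The AP-1 site (6.7% of promoters), the CArG box (1.5%) and the TATA box (12.4%) had no match in these 4 windows. The matches describe letters only; binding was not measured here.

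Library totals ran from 15112853 reads in WT replicate 2 to 22981603 in WT replicate 1. WT replicate 2 stood apart in having 23.7 head reads per 100 body reads over all genes of the table, against 12.7 to 14.9 in the other 5 libraries. Levels below are raw reads, or reads per 1000000 reads of the library total (RPM). Every row of the table had passed the authors' body comparison of DM with WT, with a largest adjusted p of 0.0498. The body changes of the 5 genes were therefore part of how the table was made, and are given as sizes with their SE and without a p-value. Head counts were not what the table was selected on, although they come from the same libraries. The head to body ratio contains the selected body counts, so it is not free of that selection.

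Relative to the library total, all 5 genes had more body reads in DM than in WT, from 1.23-fold for Fosl2 to 2.48-fold for Nfkbia. With the TMM factors, computed from the rows held, the body log2 change of Fosl2 was only 0.08 (SE 0.0889). The heads of Atf3, Nfkbia, Fosl1 and Btg2 also had a higher RPM in every DM library than in any WT library, while the groups overlapped in the head of Fosl2. The head change passed the test for Atf3 alone. In none of the 5 did the head to body ratio pass. In bulk libraries such as these, more cells of a type cannot be told apart from more transcription per cell.

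Higher body counts were common in the table. Of 2721 genes tested for body reads, 57.4% passed as higher and 42.1% as lower in DM, and in 57.3% and 38.3% the DM libraries all lay above or all below the WT libraries. Since the table was selected on this comparison, nothing is read from 5 of 5 here. For heads, 9.62% of 2579 genes passed as higher and 10.7% as lower, and 1 of the 5 genes passed, Atf3. Heads with all DM libraries above all WT libraries were 18.1% of genes, and those with all below 23.4%; 4 of the 5 genes were of the former kind. The median head log2 change of the 5 was 0.62, beside -0.11 for all genes tested, and the body medians were 0.93 and 0.40. Relative to the median of all genes, body changes were 0.92 in Nfkbia, 0.71 in Atf3, 0.53 in Btg2, 0.27 in Fosl1 and -0.10 in Fosl2. With the TMM factors, computed from the rows held, that median dropped by 0.21. Among the genes tested here, the head change was above that of 89.9% of genes for Atf3, 89.5% for Nfkbia, 82.7% for Fosl1, 81.6% for Btg2 and 50.7% for Fosl2. The genes tested include those lower in the body, whereas all 5 were higher there. Heads of the 5 were not compared with those of genes higher in the body alone. In the authors' deposited table, whose percentiles are over a set of genes not given in the sources used here, the percentile of the merged head change was 97.2 for Atf3, 97.3 for Nfkbia, 93.8 for Btg2 and 93.6 for Fosl1, but 54.6 for Fosl2. The same table labelled Fosl2 class1 and the other 4 class2. In mean RPM, Fosl2 had a slightly lower head and a higher body in DM, and the other 4 were higher in both.

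Atf3, the stress-induced repressor, had 909, 885 and 1062 body reads in WT replicates 1 to 3, against 2541, 1835 and 2183 in DM replicates 1 to 3. That is 48.2 ± 9.62 body RPM in WT against 104 ± 11.3 in DM (SD, n = 3 per group), with the lowest DM library at 90.8 and the highest WT library at 58.6. The body fold was 2.16 (log2 1.11, SE 0.155). Its head held 171, 150 and 142 reads in WT against 340, 242 and 369 in DM, and the groups did not overlap in head RPM either. Head RPM was 7.86 ± 1.89 in WT against 15.1 ± 3.25 in DM (SD, n = 3 per group), a fold of 1.93 (log2 0.95, SE 0.279, edgeR adjusted p 0.0275). It did not pass when WT replicate 3 was left out (edgeR adjusted p 0.119), nor when DM replicate 1 (0.114), 2 (0.0583) or 3 (0.188) was, nor with the authors' size factors (0.0558). The log2 change stayed between 0.78 and 1.15 in all 6 fits that left out a library.

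Nfkbia, the NF-kB inhibitor, had 403, 519 and 741 body reads in WT against 1582, 1358 and 1438 in DM. The DM libraries lay close together at 69.5 ± 2.40 body RPM, and the WT libraries were spread at 28.1 ± 9.19 (SD, n = 3 per group), with WT replicate 1 the lowest at 17.5. The body fold of 2.48 was the largest of the 5 (log2 1.31, SE 0.219). Its body log2 change was 1.06 when WT replicate 1 was left out. In its head window, which lies inside the RefSeq gene, there were 91, 182 and 164 reads in WT against 331, 296 and 284 in DM. Head RPM was 7.72 ± 4.07 in WT against 14.4 ± 0.217 in DM, and WT replicate 2, at 12.0, came closest to the DM libraries. The head log2 change of 0.91 (SE 0.336, 95% interval 0.20 to 1.63) did not pass (edgeR adjusted p 0.0641). It passed without WT replicate 2, at 1.38 (edgeR adjusted p 7.41e-04), with the TMM factors, at 1.07 (0.00201), and with DESeq2, at 0.91 (0.0391).

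Btg2, the antiproliferative gene, had 1665, 754 and 764 body reads in WT against 2765, 1692 and 1830 in DM. Body RPM was 72.4, 49.9 and 33.4 in WT against 121, 83.7 and 91.6 in DM. Replicate 1 was the highest library of its group in both groups, and the highest WT library came close to the lowest DM library without reaching it. The body fold was 1.90 (log2 0.93, SE 0.258). Left out in turn, the WT libraries moved this value more than for any other of the 5 genes, from 0.69 without WT replicate 3 to 1.25 without WT replicate 1. Its head held 933, 814 and 775 reads in WT against 1481, 1194 and 1355 in DM, or 42.8 ± 10.2 and 63.9 ± 4.45 RPM (SD, n = 3 per group). The head log2 change of 0.58 (SE 0.238, 95% interval 0.07 to 1.09) did not pass (edgeR adjusted p 0.0916), but did so without WT replicate 2, at 0.78 (edgeR adjusted p 5.57e-04).

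Fosl1, which encodes Fra-1, had the fewest reads of the 5, with 265, 175 and 171 body reads in WT against 374, 302 and 338 in DM. Body RPM was 10.2 ± 2.36 in WT against 16.1 ± 1.02 in DM (SD, n = 3 per group), a fold of 1.58 (log2 0.66, SE 0.190). With the TMM factors this body value was 0.44. Its head held 89, 51 and 50 reads in WT against 90, 99 and 114 in DM. In RPM the lowest DM head, 3.94 in replicate 1, was just above the highest WT head, 3.87 in replicate 1. The head log2 change was 0.62 (SE 0.291, edgeR adjusted p 0.132), and it passed without WT replicate 1, at 0.82 (edgeR adjusted p 0.0350).

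Fosl2, which encodes Fra-2, had 4723, 3008 and 4253 body reads in WT against 5758, 4547 and 4961 in DM. Body RPM was 197 ± 10.0 in WT against 242 ± 14.7 in DM (SD, n = 3 per group), with no overlap between the groups. The body fold was 1.23 (log2 0.30, SE 0.0964). This value lay below the median of all genes tested, 0.40. With the TMM factors it was 0.08. Its head, which lies upstream of the RefSeq start, held 855, 518 and 725 reads in WT against 682, 640 and 691 in DM. Head RPM overlapped between the groups, at 34.4 ± 2.76 in WT against 32.0 ± 2.38 in DM. The head log2 change was -0.10 with a 95% interval from -0.58 to 0.38 (edgeR adjusted p 0.793), so a head change of up to 1.30-fold upwards or down to 0.667-fold was not excluded by the interval.

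**Figure D2:**
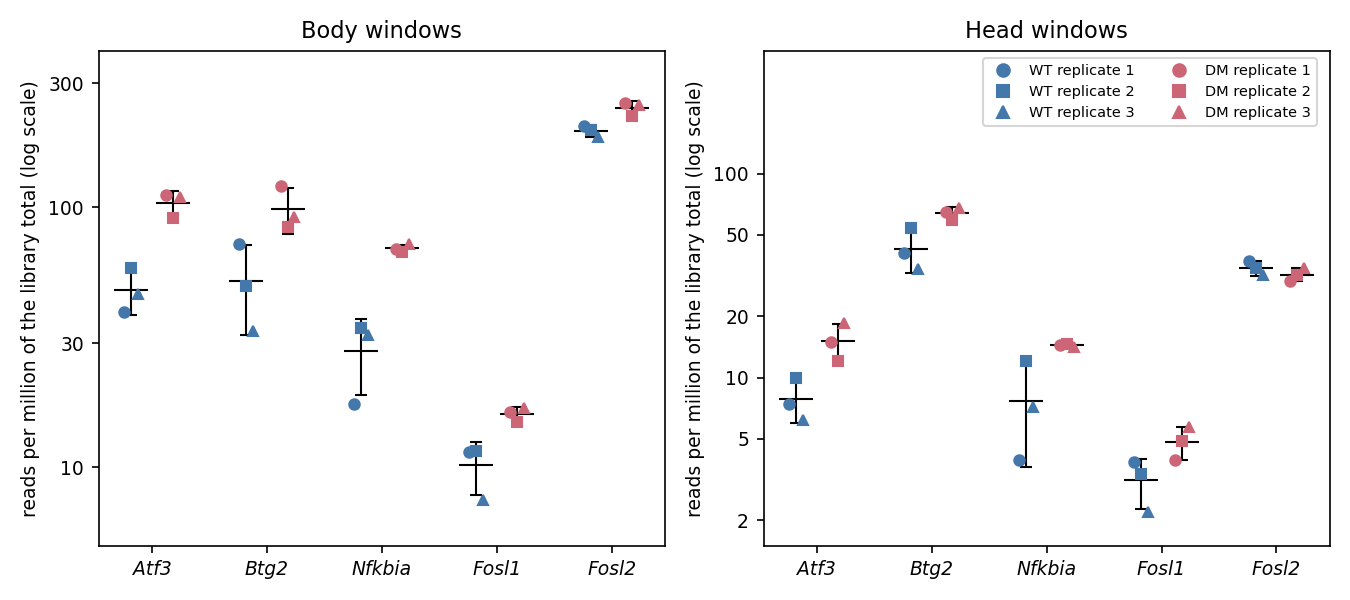
RPM (log axes) in the body (left) and head (right) windows of the 5 genes; each point is a library, horizontal bars are means and vertical bars SDs of 3 libraries. All DM points lie above all WT points in every body and in every head but that of Fosl2, where WT runs from 31.7 to 37.2 and DM from 29.9 to 34.6.

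The head to body ratio compares the change in the head window with that in the rest of the transcript. For Atf3, Btg2 and Fosl1 the head lies at the RefSeq start, whereas for Nfkbia and Fosl2 it does not, and their ratios do not set polymerase near that start against polymerase further along. Per 100 body reads, Atf3 had 18.8, 16.9 and 13.4 head reads in WT against 13.4, 13.2 and 16.9 in DM, and the groups overlapped. Btg2 had 56.0, 108 and 101 in WT against 53.6, 70.6 and 74.0 in DM; the replicates numbered 1 were the lowest in both groups, and the groups overlapped. Fosl1 had 33.6, 29.1 and 29.2 in WT against 24.1, 32.8 and 33.7 in DM, again overlapping. Nfkbia had 22.6, 35.1 and 22.1 in WT against 20.9, 21.8 and 19.7 in DM, so that all DM values lay below all WT values by a narrow margin. The groups were also apart in Fosl2, with 18.1, 17.2 and 17.0 in WT against 11.8, 14.1 and 13.9 in DM.

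None of these ratios passed the test of the region by group interaction, and 2 of 2577 genes did by edgeR, both lower (0.0776%), with 395 at an unadjusted p under 0.05. The log2 change of the ratio was -0.40 for Fosl2 (SE 0.233, 95% interval -0.90 to 0.10, edgeR adjusted p 0.401). It was -0.38 for Btg2 (SE 0.298), -0.33 for Nfkbia (SE 0.268), -0.17 for Atf3 (SE 0.262) and -0.04 for Fosl1 (SE 0.280), with edgeR adjusted p from 0.521 to 0.954. Leaving out 1 library moved these values: Btg2 ran from -0.68 without WT replicate 1 to -0.20 without WT replicate 2, and Nfkbia from -0.45 without WT replicate 3 to -0.10 without WT replicate 2. Atf3 ran from -0.31 without WT replicate 3 to -0.06 without WT replicate 1, Fosl1 from -0.13 to 0.12 and Fosl2 from -0.44 to -0.32. The median of the 5 was -0.33, close to that of all genes tested, -0.26. All DM ratios lay below all WT ratios in 22.2% of genes, and in 2 of these 5. The intervals are wide: for Btg2 the ratio in DM could lie between 0.493 and 1.20 times that in WT. Over the whole table the head reads per 100 body reads were 17.4 ± 5.55 in WT against 13.7 ± 0.904 in DM (SD, n = 3 per group), and the exact permutation test (two-sided) gave p = 0.300, where 3 against 3 allows no less than 0.1. Without WT replicate 2 the difference shrank from -3.67 to -0.49. With separate TMM factors for head and body, the median of all genes moved from -0.26 to 0.05, and the ratio changes of Atf3 and Fosl1 turned to 0.14 and 0.25. Those of Fosl2, Btg2 and Nfkbia were then -0.09, -0.06 and -0.00, and 29 genes passed as higher and 22 as lower.

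**Figure D3:**
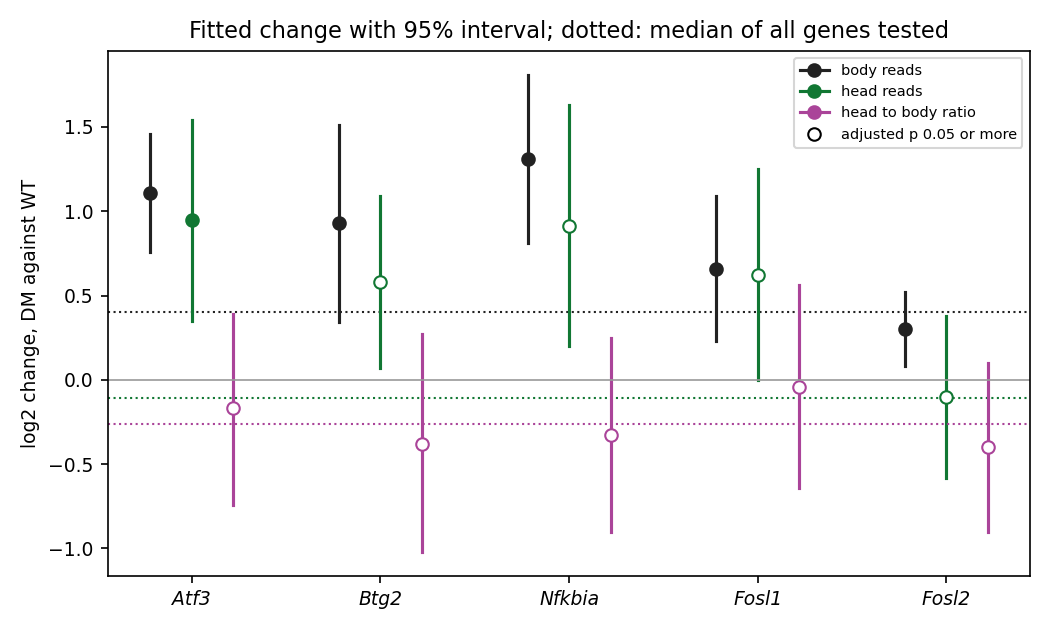
Fitted log2 change of DM against WT for body reads, head reads and their ratio in the 5 genes, with 95% intervals; filled points have an edgeR adjusted p under 0.05, and dotted lines are medians of all genes tested in the same colour. All body points, from a table selected on the body comparison, and the head point of Atf3 are filled, and all ratio intervals include 0.

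Levels of different genes were compared per length, as RPM per kilobase of window (RPKM). In WT, body RPKM was 14.2 ± 5.37 in Btg2, 13.4 ± 4.38 in Nfkbia, 9.05 ± 0.460 in Fosl2, 3.78 ± 0.755 in Atf3 and 1.28 ± 0.297 in Fosl1 (SD, n = 3 per group). The ranges of Btg2 (9.15 to 19.9), Nfkbia (8.35 to 16.4) and Fosl2 (8.55 to 9.45) overlapped, whereas Atf3 and Fosl1 were apart from these and from each other. In DM the order was Nfkbia at 33.1 ± 1.15, Btg2 at 27.1 ± 5.40, Fosl2 at 11.1 ± 0.677, Atf3 at 8.14 ± 0.886 and Fosl1 at 2.02 ± 0.129. There the lowest Nfkbia library (32.0) was below the highest Btg2 library (33.2), and the other genes did not overlap. The median body RPKM of the table was 0.931 in WT against 1.06 in DM, so all 5 were above it.

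Genes of this kind are known for paused polymerase, and the ratio of head to body RPKM was set against the table. In WT it was 11.5 ± 0.373 in Fosl2, 9.78 ± 3.13 in Btg2, 7.38 ± 0.610 in Fosl1, 6.32 ± 1.07 in Atf3 and 1.69 ± 0.467 in Nfkbia (SD, n = 3 per group). All 5 lay below the table's median of 19.3, with from 3.3% of genes (Nfkbia) to 34.8% (Fosl2) having a lower ratio. This held for Atf3, Btg2 and Fosl1, whose heads lie at the gene start, as well as for the 2 whose heads lie elsewhere. In DM all 5 were again below the median, which was 15.6. The bodies of the 5 genes are short, however, at 2099 to 21740 bp, and among the 992 genes of the table with bodies of up to 21740 bp the WT median was 8.43. Fosl2 and Btg2 were above that value, and Fosl1, Atf3 and Nfkbia below it. In DM the median of these short genes was 7.89, and Fosl2, at 8.75, was above it, while Btg2, at 7.30, was below it. By these counts none of the 5 was among the genes of the table with the highest ratio.

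**Figure D4:**
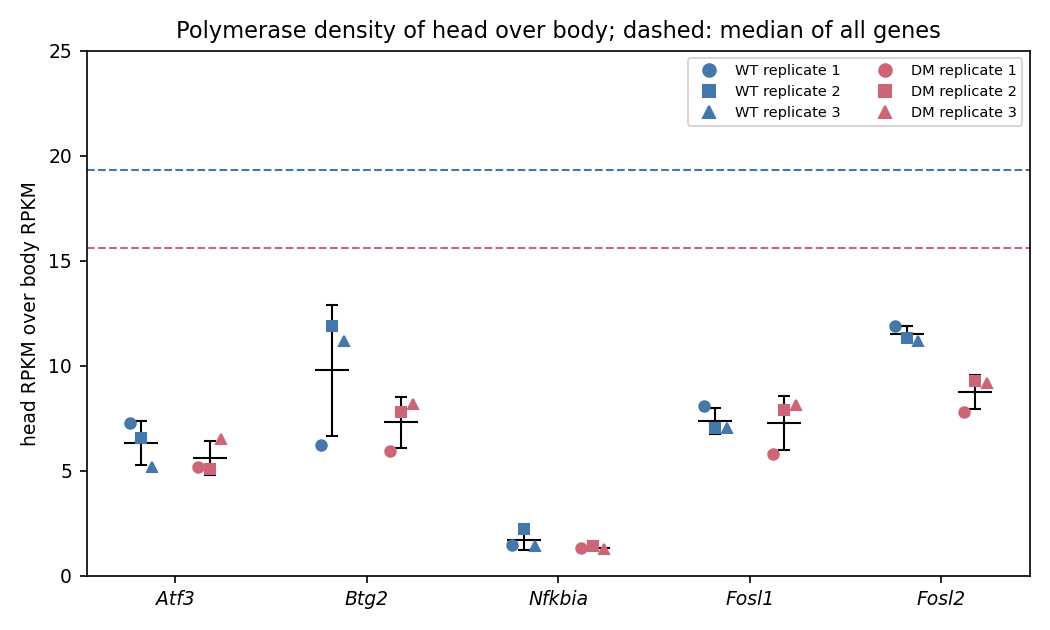
Ratio of head RPKM to body RPKM in the 5 genes; each point is a library, horizontal bars are means and vertical bars SDs of 3 libraries, and dashed lines are medians of all genes of the table in WT (19.3) and DM (15.6). Every point lies below both lines, and those of Nfkbia, whose head lies inside the gene, are the lowest.

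The WT libraries differed among themselves in a way that set the 5 genes apart from each other. In WT replicate 1, Btg2 was at its highest body RPM of the group, while Atf3 (39.6 against 58.6 and 46.4) and Nfkbia (17.5 against 34.3 and 32.4) were at their lowest. Over the 6 libraries, the log2 body RPM of Atf3 and Nfkbia followed each other at r = 0.96, and Btg2 followed Fosl1 at 0.94 and Fosl2 at 0.94, but Nfkbia at only 0.56. These correlations contain the difference between the groups, which all 5 genes share.

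The genes with the most similar body pattern over the 6 libraries were listed by Pearson r among 2640 genes with a mean of at least 50 reads. For Atf3 these included Dhrs3, a retinal reductase, at r = 1.000, and Hebp1, a heme-binding protein, at 0.999. For Nfkbia they were Dhrs7, Mgst2 and Slc35f6, each at 0.999. Many genes were nearly as close: r was over 0.95 for 523 genes with Atf3 and 449 with Nfkbia. Btg2 had 27 such genes, led by Ifrd1 at 0.994, 1600002D24Rik at 0.983 and Anxa3 at 0.980. Fosl1 had 48, led by Prom1, Dgat2 and Bcl2l11, each at 0.994, and Fosl2 had 122, led by Zswim6 (0.995), Itgb5 (0.994) and Galnt3 (0.993).

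Other genes of the same pathways were taken from lists chosen with earlier results of these data known. Of 28 AP-1 and ATF family genes, 6 were in the table, and all 6 were higher in body reads (median log2 0.74). In this table, selected on body reads, 57.4% of genes passed as higher and 42.1% as lower in the body, and 9.62% and 10.7% in the head, and the counts of each list stand beside these shares. Beside Atf3, Fosl1 and Fosl2 they included Maf, at 0.80 (SE 0.218), and Maff, at 0.85 (SE 0.161), relatives of Fos and Jun. Of their heads, that of Atf3 alone passed. Fos, Fosb, Jun, Junb, Jund and Egr1 had no row and were not analysed here.

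The NF-kB list had 10 of 34 genes in the table, all higher in body reads (median 0.56, beside 57.4% of all genes higher). Its heads gave 2 of 10 higher and none lower, beside 9.62% and 10.7% of all genes. Tnf, the cytokine that NF-kB induces, went from 174 ± 31.6 to 306 ± 18.2 body RPM (SD, n = 3 per group; log2 0.81, SE 0.141). Tnfaip3 and Tnip1, which like Nfkbia restrain the pathway, rose in the body by 0.44 and 0.58. Their heads went opposite ways: Tnip1 rose by 1.71 (SE 0.375, edgeR adjusted p 0.00933), and Tnfaip3 had a head log2 change of -0.70 that did not pass (SE 0.254, edgeR adjusted p 0.0618). The head of Tnip3, a relative of Tnip1, rose by 1.32 (SE 0.352, edgeR adjusted p 0.0191). Traf3 and Ikbkg, signalling components of the pathway, had body changes of 0.35 and 0.34.

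Of 49 other immediate early genes, 14 were in the table, with 10 higher and 4 lower in the body (57.4% and 42.1% of all genes). Of 12 heads tested, 3 were higher and none lower (9.62% and 10.7% of all genes). Sgk1, a kinase induced by serum and glucocorticoids, went from 83.0 ± 3.98 to 230 ± 34.2 body RPM (SD, n = 3 per group; log2 1.47, SE 0.127), and its head rose by 0.89 (edgeR adjusted p 0.0339). The heads of Trib1, a regulator of C/EBP proteins, and Id1, an inhibitor of helix-loop-helix factors, rose by 1.37 (edgeR adjusted p 0.00649) and 0.95 (0.0219). Cebpb, a myeloid transcription factor, was 1.03 higher in the body, Rhob 0.53 and Zfp36l1 0.41. Dusp4, a phosphatase that ends MAP kinase signals, was lower, with a body change of -0.84 (SE 0.204).

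Genes near Btg2 in function were split in direction. Of 30 genes of the BTG/TOB, CCR4-NOT and p53 list, 7 were in the table, 3 higher and 4 lower in the body. Over all genes tested, 57.4% passed as higher and 42.1% as lower in the body, and 9.62% and 10.7% in the head. Fas (0.97) and Plk2 (0.85) were higher, as was Btg2. The relative Tob2 (-0.46), the deadenylase gene Cnot6l (-0.43), the stress gene Ddit4 (-0.58) and Eda2r were lower. The head of Plk2 rose by 0.77 (edgeR adjusted p 0.0424), and that of Cnot6l fell by 0.83 (0.0348). In the wider stress list, 8 of 35 genes were in the table, 4 higher and 4 lower. Slc7a11, the cystine transporter, was the most changed of those named, from 82.6 ± 15.7 to 244 ± 3.47 body RPM (SD, n = 3 per group; log2 1.56, SE 0.142), with a head increase of 1.00 (edgeR adjusted p 0.0191). The chaperone gene Hsp90ab1 (-0.42) and the autophagy receptor gene Sqstm1 (-0.47) were lower, and the kinase gene Eif2ak4 (0.33) was higher. Of 33 genes of the MAP kinase list, 13 were in the table, 10 higher and 3 lower in the body, and no head passed by edgeR. Among those with the most body reads, Map3k1 (0.78), Map3k8 (0.59), Mrtfb (0.66) and Mapk14 (0.22) were higher. The 3 lower genes had fewer body reads than these and are not named here. No ratio of any listed gene passed.

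Markers of blood lineages also differed between the groups, some in the direction of the 5 genes and some in the other. Every marker held had passed the authors' body comparison. Among all genes tested for body reads, 57.4% passed as higher and 42.1% as lower in DM. Markers without a row were not analysed here, so counts and sums cover only those held. Of 10 progenitor markers 8 were in the table, 1 higher and 6 lower of 7 tested, and their summed body level ran from 3674 to 4691 RPM in WT and from 2622 to 2743 in DM; Kit, which defines the labelled cells, was present in all libraries, at 1266 ± 259 and 657 ± 8.53 (SD, n = 3 per group). Of 17 neutrophil and monocyte markers 7 were in the table, 6 higher and 1 lower, and their sum ran from 252 to 315 RPM in WT and from 622 to 705 in DM. The sums of 4 of 9 mast and basophil markers, all 4 lower, were 1283 to 2362 and 1006 to 1087, and those of 4 of 12 erythroid and megakaryocyte markers, also all lower, were 197 to 223 and 108 to 125. Of 11 lymphoid markers Il7r alone was in the table, at 22.4 ± 5.29 in WT against 65.5 ± 8.28 in DM, and of 6 stromal and endothelial markers none was. No marker held was at 0 in any library. The part of these shifts in the changes of the 5 genes was not tested.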

How the data were processed

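Per the submitters' processing notes, cutadapt, Trimmomatic, Bowtie 1.1.2, MACS2 and bedtools 2.28 were used with the builds mm10 and dm3; roles and order are not given. Raw counts per head and body window, and a total per library, were deposited by the authors. How the totals were counted is not stated, and no spike-in counts were among the values used. RPKM values, their ratios and folds (after adding 0.1 to each RPKM), log2 fold changes, p-values, scores (a test statistic and percentiles) and the mean normalized signal were also deposited by the authors, the body statistics under column names of DESeq2 output.

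Genes with several rows entered by the row with most body reads on average. Separate quasi-likelihood tests of edgeR 4.0.16 (R 4.3.3) were run on body and on head counts, on filterByExpr-filtered genes (minimum count 10, minimum total 15), with group as the only term. Deposited library totals served as library sizes, because TMM factors of rows selected on this comparison are not those of all transcripts. The ratio was tested as the interaction of region and group, with library as a block. P-values were adjusted by Benjamini-Hochberg over all genes tested, with a threshold of 0.05. On simulated counts with 200 genes changed 2-fold, 98.0% (body, 2741 genes), 90.5% (head, 2601) and 77.6% (ratio, 2597) of the changed genes tested were recovered. Unchanged genes that passed numbered 7 (body), 11 (head) and 7 (ratio). The simulation gave all genes the same dispersion and no library an excess of head reads, unlike WT replicate 2. The shares recovered may therefore not hold for the real counts.

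From each pathway list up to 5 genes with the highest mean body count were named, and up to 5 more whose head or ratio passed; for each of the 5 genes, the 3 most similar patterns of log2 body RPM (pseudocount 0.1) were named; some genes that this rule names are not reported here. The 5 genes and all lists were chosen with earlier results of these data known. Intervals cover 95%. Alternatives were scalings, filters, DESeq2 1.42.0, row choice, the replicate block, a threshold of 0.01 and leaving out each library.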

Additional observations from a re-analysis of the deposited data

How the results depend on the processing

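Because the table was selected on the body comparison, kept directions in the body show no stability. Over all alternatives for the 5 genes, 69 body, 62 head and 65 ratio values kept their direction and side of the threshold, and 6 body and 4 ratio values did not, and of the head values 7 gained and 6 lost the call; causes of the changes below were not tested.

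Body changes: with the TMM factors Fosl1 was 0.44 and Fosl2 0.08, and neither passed, with the median of all genes lower by 0.21. At a threshold of 0.01 Fosl1 (0.66) and Fosl2 (0.30) did not pass. These calls are on the comparison that selected the table, so they are given without p-values. Leaving out 1 library gave 0.26 to 0.35 for Fosl2, which did not pass without DM replicate 1 or DM replicate 3. Of 2721 genes 2707 passed at 0.05, and the share higher among these was 57.7%. Among genes that passed at 0.05 with the TMM factors it was 49.7%. At 0.01, 1770 genes passed, 1219 higher and 551 lower.

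Head changes: Atf3 did not pass with the authors' size factors (0.91) or at 0.01 (0.95). Btg2 passed with the TMM factors (0.66), as did Nfkbia (1.07), which also passed with DESeq2 (0.91, adjusted p 0.0391) and the replicate block (1.03, edgeR adjusted p 0.00217). Leaving out 1 library gave 0.78 to 1.15 for Atf3, 0.44 to 0.78 for Btg2, 0.60 to 1.38 for Nfkbia and 0.41 to 0.82 for Fosl1. Of all genes, 524 passed, against 984 with the TMM factors, 796 with the replicate block, 321 when the mean count had to reach 50, and 115 at 0.01; leaving out 1 library gave 14 (without DM replicate 1) to 942 (without WT replicate 2).

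Ratio changes: separate TMM factors turned Atf3 to 0.14 and Fosl1 to 0.25, and Fosl1 ran from -0.13 to 0.12 with 1 library left out, at 0.03 without WT replicate 1 and 0.12 without DM replicate 1. Of all genes 2 passed; separate TMM factors gave 51 (29 higher, 22 lower), DESeq2 42, the replicate block 38, the row with the most head reads 5 and a mean count of 50 or more 1. By edgeR 0 passed at 0.01, with 395 at an unadjusted p under 0.05; leaving out 1 library gave 0 (without any DM replicate, with 152 to 254 at an unadjusted p under 0.05) to 82 (without WT replicate 2). The replicate block changed no other call of the 5 genes. With it the body SE fell from 0.258 to 0.146 for Btg2 and rose from 0.0964 to 0.135 for Fosl2. Same-numbered libraries deviated from their group means with r = -0.088, -0.179 and 0.358 in bodies. With 3 libraries per group, these values cannot decide whether the replicate numbers mark pairs. The main tests did not take the numbers as pairs. DESeq2 gave no adjusted p for the ratio of Fosl1. The head counts of Fosl1 were 50 to 114 reads per library.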
